A study of Mus musculus with 20 samples.

Results

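The genes described here move iron into cells, hold it, pass it out again and sense how much is present. They were chosen by symbol: Tfrc, Trf and Slc11a2 for uptake, Fth1 and Ftl1 for storage, Slc40a1 and Cp for export, and Aco1 and Ireb2 for sensing. These 9 genes are 9 of 55536 in the count table, and each of the 9 passed the filter on low counts that left 16419 genes to test. Tfrc had been chosen because it was lower in knockout than in wild-type mice after lipopolysaccharide, so its values in comparisons that use the knockout LPS libraries are given as a description, with no test.

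Hippocampal RNA came from male C57BL/6J mice aged 12 weeks, wild-type or with a knockout of Fkbp5, which encodes a co-chaperone of HSP90 that restrains the glucocorticoid receptor. All had 1 injection into the peritoneum, of saline or of LPS (lipopolysaccharide, an outer membrane molecule of bacteria that sets off inflammation) at 3 mg/kg, and tissue was taken on day 7. Each genotype and treatment was represented by 5 libraries, 20 in all. The labels give neither the exon removed nor the cells in which the knockout acts, and do not say whether each library came from its own mouse, so p-values measure the spread between these libraries.

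Iron reaches a brain cell mainly as transferrin (Trf) bound to the transferrin receptor (Tfrc). In the endosome it is released and carried into the cytosol by the divalent metal transporter Slc11a2. Spare iron is stored in ferritin, a shell of heavy (Fth1) and light (Ftl1) chains, or leaves through ferroportin (Slc40a1), after which ceruloplasmin (Cp) oxidises it. The iron regulatory proteins, encoded by Aco1 and Ireb2, bind RNA hairpins called iron-responsive elements when iron is scarce. Bound before the coding region, they block translation of ferritin and ferroportin, and bound after it they protect the Tfrc mRNA from decay. Among brain cells, oligodendrocytes are known for a high iron content and capillary endothelium for a high content of transferrin receptor.

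The hairpins that a search for 1 form of this switch found among the 9 mRNAs are shown. GENCODE M21 transcripts (GRCm38, also called mm10) were searched on the transcribed strand for the core of the element: a C, 5 bases, the loop CAGTGN, then 5 bases that pair with the earlier 5 (Watson-Crick or G-T). The loop is in capitals, flanked by the stem and 6 further bases on each side in lower case. The first 3 hairpins lie in 5′ untranslated regions, on the plus strand of chr19:9982732-9982760 for Fth1, the minus strand of chr7:45459779-45459807 for Ftl1 and the minus strand of chr1:45925465-45925493 for Slc40a1.
Fth1: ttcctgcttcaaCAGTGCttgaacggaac
Ftl1: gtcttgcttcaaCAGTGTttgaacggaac
Slc40a1: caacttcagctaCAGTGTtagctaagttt
The 4 of Tfrc lie in its 3′ untranslated region on the plus strand, at chr16:32631219-32631247, chr16:32631598-32631626, chr16:32631663-32631691 and chr16:32631710-32631738, in this order.
Tfrc a: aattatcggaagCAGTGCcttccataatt
Tfrc b: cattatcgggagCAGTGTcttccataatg
Tfrc c: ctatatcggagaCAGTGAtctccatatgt
Tfrc d: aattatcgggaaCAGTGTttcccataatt
Of 21901 protein-coding genes searched, 31 (0.142%) held a match in a 5′ untranslated region and 129 (0.589%) in a 3′ untranslated region. Tfrc was the 1 gene with 4 or more matches in a single transcript, and 5 genes had 2 or more. Trf, Slc11a2, Ireb2, Aco1 and Cp held no match to these letters, which says nothing of hairpins with other stems. A gene without a match, Slc11a2 included, may therefore still carry an element, and a gene with matches may carry more. A match is a description of the sequence, and binding was not measured.

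The members are scattered over the genome. In GRCm38 they lie on chromosome 16 (Tfrc, 32608920 to 32632794), chromosome 9 (Trf, 103204001 to 103230444, and Ireb2, 54863789 to 54912530), chromosome 15 (Slc11a2, 100387898 to 100425072), chromosome 19 (Fth1, 9980598 to 9985098) and chromosome 7 (Ftl1, 45457944 to 45459884). Slc40a1 lies on chromosome 1 (45908068 to 45926523), Cp on chromosome 3 (19957054 to 20009145) and Aco1 on chromosome 4 (40143081 to 40198338). None is on chromosome 17, where Fkbp5 lies.

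Total counts ran from 16652992 to 27230202 per library. Fkbp5 checks the genotype labels: in CPM (counts divided by the scaled total of the library and put on a common scale) wild-type mice averaged 63.1 ± 6.71 after saline and 66.2 ± 4.87 after LPS (SD, n = 5), against 30.7 ± 4.45 and 29.5 ± 4.06 in knockout mice. No wild-type library overlapped a knockout library. The markers fixed for hippocampal neurons were present throughout, at a summed 1021 to 1645 CPM. Replicates 1 and 2 of each group stood apart from replicates 3 to 5 along the first principal component, which held 52.9% of the variance, and no label explains this. These 8 and 12 libraries are called the library sets below. In 3 libraries (wild-type LPS 1 and 4, knockout LPS 1) the summed thalamus markers reached 222, 216 and 199 CPM, against 106 to 174 CPM in the other 17.

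Per kilobase of exon (all annotated exons of a gene merged), ferritin heavy chain dominated and the export genes were lowest. Over all 20 libraries the mean level was 666 ± 147 CPM per kilobase for Fth1 (SD, n = 20), 69.4 ± 6.36 for Ftl1 and 14.6 ± 2.49 for Tfrc. These 3 levels did not overlap in any library. Slc11a2 (7.28 ± 1.18 CPM per kilobase), Aco1 (7.06 ± 1.10) and Ireb2 (6.71 ± 0.638) followed within each other's spread, and their order changed between groups. Trf stood at 2.46 ± 0.490 CPM per kilobase. Slc40a1 (1.34 ± 0.262) and Cp (0.959 ± 0.283) overlapped each other. The order of these 3 depends on the division by length: in CPM Trf was lowest, at a mean of 8.16, against 9.17 for Cp and 12.1 for Slc40a1. Among the genes tested, Fth1 lay at percentile 99.8 of level per length in wild-type saline, Tfrc at 82.6 and Cp at 22.4.

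**Figure D1:**
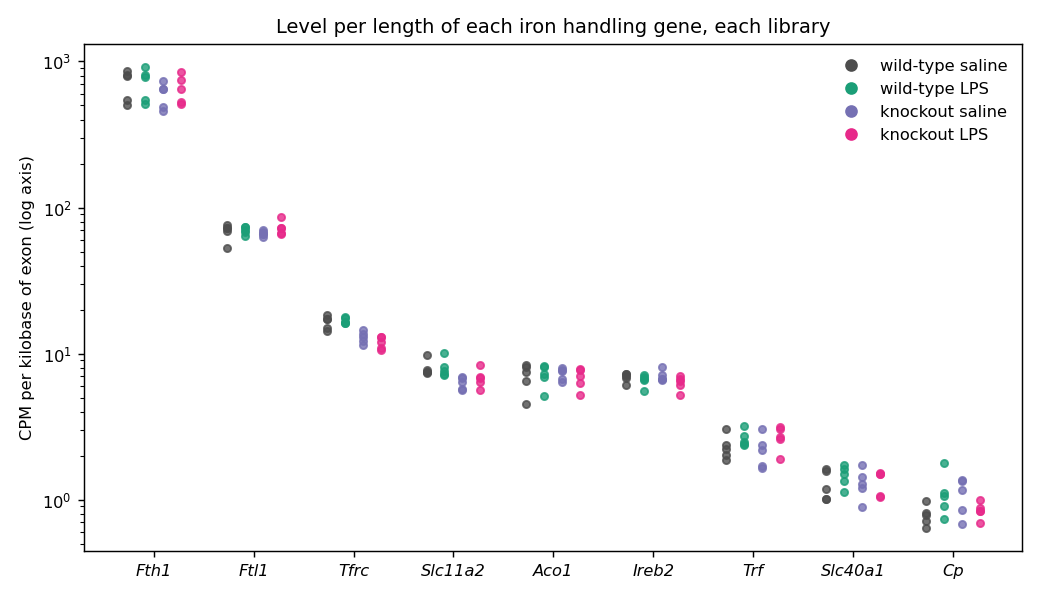
Level of each of the 9 iron handling genes in each library, in CPM per kilobase of exon on a log axis, with the 4 groups side by side in 4 colours. Fth1, Ftl1 and Tfrc form separate steps, while Slc11a2, Aco1 and Ireb2 share 1 range.

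Such levels depend on how reads were assigned. The annotated gene Gm20425 lies on the same strand as Trf and shares 2108 of the 3320 exon bases of Trf (63.5%), leaving 1212 of its own, and it is listed at 0 in all 20 libraries. How reads in shared bases were counted is not given in the sources used here, so the level of Trf is uncertain. Ftl1 matches 7 other annotated genes, miRNA genes left out, with at least 95% identity over 30% or more of their length. Of these, Gm10252 overlaps Ftl1 itself on the opposite strand. The highest of them, Ftl1-ps1, had a mean count of 10.05 against 1895 for Ftl1. Fth1 has 1 such match with a mean count of 6.1 against 45166. The treatment of reads that fit several copies is not given either, so the ratio between ferritin chains is uncertain in absolute terms.

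Tfrc, the transferrin receptor, was lower in knockout than in wild-type hippocampus under both treatments. After LPS, the 5 wild-type libraries had 101, 108, 102, 100.3 and 111 CPM. The 5 knockout libraries had 80.1, 65.7, 67.7, 74.5 and 81.0 CPM. These groups did not overlap, as was the case for 0.372% of all genes tested in the lower direction, and this is the pattern Tfrc was chosen for. The knockout mean was 70.6% of wild-type, a log2 fold change of -0.50 ± 0.09 (SE). After saline, the wild-type libraries had 106, 114, 107, 89.0 and 93.0 CPM and the knockout libraries 90.3, 75.8, 80.8, 71.1 and 83.7 CPM. A single knockout library, at 90.3 CPM, reached above the lowest wild-type one, at 89.0 CPM.

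The saline mice were not part of the choice, but their test shares its estimate of the spread with the LPS libraries. It is therefore not fully independent. After saline the knockout mean was 78.8% of wild-type, a log2 fold change of -0.34 ± 0.09 (95% interval -0.53 to -0.15). Its unadjusted p was 0.00111 in edgeR's quasi-likelihood test, rank 51 of 16419, and the edgeR adjusted p of 0.356 missed the threshold of 0.05. With limma-voom, 1 of the alternatives, the difference was -0.28 with an adjusted p of 0.0393, where 2.20% of all genes were called. In edgeR the adjusted p was 0.0971 with the library set as a term and 0.0745 with the replicate number as a block. DESeq2 gave 0.106, and edgeR in replicates 3 to 5 alone 0.0575. Other edgeR fits gave 0.427 without the 3 libraries high in thalamus markers, 0.898 without the filter and 0.958 in replicates 1 and 2 alone. On leaving out a library it was at least 0.25, and it was not past the threshold with only the groups compared.

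Within each library set the genotypes separated fully for Tfrc. In replicates 1 and 2 the 4 knockout libraries spanned 65.7 to 90.3 CPM and the 4 wild-type ones 101 to 114 CPM; 2.41% of all genes tested were lower in knockout without overlap there. In replicates 3 to 5 the 6 knockout libraries spanned 67.7 to 83.7 CPM and the 6 wild-type ones 89.0 to 111 CPM, against 1.35% of all genes. These ranges include the knockout LPS libraries and are a description. Without the 3 libraries highest in thalamus markers the log2 fold change of Tfrc after LPS was -0.57 ± 0.11.

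Within each genotype the Tfrc values after LPS and after saline overlapped. In wild-type mice LPS and saline differed by 0.03 ± 0.09 on the log2 scale (95% interval -0.16 to 0.23; edgeR adjusted p = 1.00). In knockout mice the difference was -0.12 ± 0.09, with knockout LPS at 65.7 to 81.0 CPM and knockout saline at 71.1 to 90.3 CPM, which overlap. The interaction of genotype and treatment was -0.16 ± 0.13 (95% interval -0.43 to 0.11), also as a description.

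Markers of oligodendrocytes and endothelium lay mostly in the same direction as Tfrc. After LPS all 12 myelin and oligodendrocyte markers lay below 0 in knockout against wild-type (median log2 fold change -0.37), with summed levels of 2968 to 4572 CPM in knockout and 3584 to 6773 CPM in wild-type. Of 11 brain endothelium markers 10 lay below 0 (median -0.28), at 262 to 397 CPM in knockout and 350.2 to 429.6 CPM in wild-type. After saline 11 of 12 myelin markers (median -0.23; 2521 to 3916 against 3146 to 5177 CPM) and 9 of 11 endothelium markers (median -0.08; 240.1 to 346 against 259 to 384 CPM) lay below 0. None of these markers passed the threshold and none was at 0. Of all genes, 49.5% lay below 0 after LPS and 55.5% after saline. Several other lists also lay mostly below 0 after LPS: 8 of 10 microglia, 7 of 8 astrocyte, 8 of 10 thalamus and 8 of 10 meningeal fibroblast markers. Their counts after saline were 10, 1, 5 and 1. Hippocampal neuron markers (7 of 10 after LPS, 8 of 10 after saline) and choroid plexus markers (6 of 9, 8 of 9) lay mostly above 0. Across the 20 libraries, after removal of each library set's mean, Tfrc correlated with the myelin markers at r = 0.65 and with the endothelium markers at r = 0.25; these points share library, group and depth. Their part in the Tfrc difference was not tested, and in bulk tissue fewer cells of a type cannot be told apart from less RNA per cell.

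**Figure D2:**
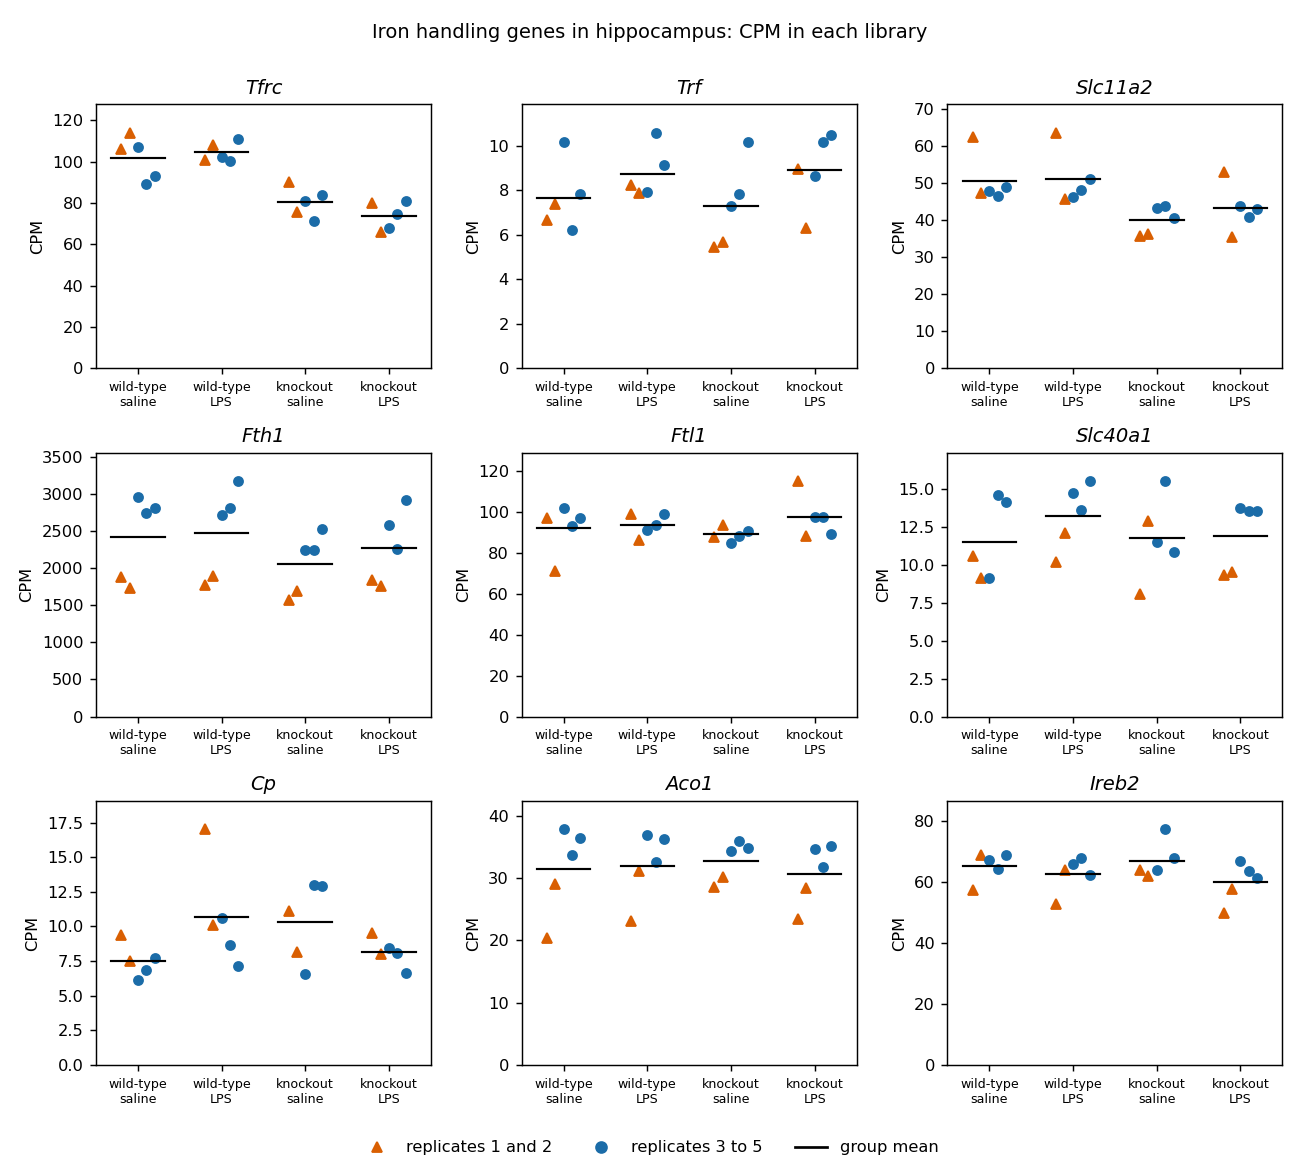
CPM of each of the 9 genes in every library (points; triangles are replicates 1 and 2, circles replicates 3 to 5) with the mean of each group of 5 (black line), on axes that start at 0. Tfrc sits at 89.0 to 114 CPM in wild-type and 65.7 to 90.3 CPM in knockout, while Fth1 and Aco1 split by library set.

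Slc11a2, the endosomal iron carrier, was also lower in knockout libraries, without passing the threshold. After saline, wild-type libraries had 62.6, 47.3, 47.8, 46.6 and 48.9 CPM and knockout libraries 35.8, 36.4, 43.3, 43.9 and 40.7 CPM. These groups did not overlap, as was the case for 0.305% of all genes in the lower direction; the log2 fold change was -0.34 ± 0.12 (95% interval -0.59 to -0.09; unadjusted p = 0.00993, edgeR adjusted p = 1.00). After LPS, wild-type libraries had 63.7, 45.7, 46.2, 48.3 and 51.3 CPM and knockout libraries 53.1, 35.6, 43.8, 40.8 and 43.1 CPM. Here the groups overlapped, and the difference was -0.24 ± 0.12 (95% interval -0.49 to 0.01; edgeR adjusted p = 1.00).

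Averaged over both treatments, Slc11a2 in knockout mice was 81.9% of its wild-type level, at -0.29 ± 0.08 on the log2 scale (edgeR adjusted p = 0.288). The replicate number as a block gave -0.28 with an edgeR adjusted p of 0.0294 (1.07% of all genes called), and limma-voom gave -0.20 with an adjusted p of 0.0248 (3.26% called). In replicates 3 to 5 the 6 knockout libraries (40.7 to 43.9 CPM) lay below the 6 wild-type ones (46.2 to 51.3 CPM), against 1.35% of all genes, with a log2 fold change of -0.18 and an edgeR adjusted p of 0.0252 in those libraries alone (8.10% of all genes called). In replicates 1 and 2 the genotypes overlapped, at 35.6 to 53.1 and 45.7 to 63.7 CPM, and the log2 fold change there was -0.43 (edgeR adjusted p = 0.757). The difference was thus larger in the set where it was less certain; without wild-type LPS 1 the value after LPS was -0.14. LPS and saline differed by 0.01 ± 0.12 in wild-type and 0.11 ± 0.12 in knockout mice (edgeR adjusted p = 1.00 for each). The gene Gm5475 on the opposite strand shares 402 exon bases with Slc11a2 and had at most 7 counts in a library. Slc11a2 correlated, after removal of the set means, with hippocampal neuron markers at r = -0.70, astrocyte markers at -0.60 and endothelium markers at 0.53. For knockout over both treatments 9 of 10, 3 of 8 and 1 of 11 of these markers lay above 0. Their part in the Slc11a2 values was not tested.

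Trf, which encodes transferrin and is made in the brain mostly by oligodendrocytes and choroid plexus, ranged from 5.47 to 10.6 CPM over the 20 libraries. Wild-type mice averaged 7.66 ± 1.55 CPM after saline and 8.76 ± 1.16 after LPS, and knockout mice 7.30 ± 1.91 and 8.93 ± 1.66 (SD, n = 5 each). All 4 ranges overlapped. The LPS means were 114% of saline in wild-type and 122% in knockout, with log2 fold changes of 0.19 ± 0.18 and 0.29 ± 0.18 (edgeR adjusted p = 1.00 for each). Knockout and wild-type differed by -0.07 ± 0.18 after saline and 0.03 ± 0.18 after LPS. The 95% intervals of these differences reach from -0.46 to 0.68 over the 4 comparisons, so changes within these intervals remain possible for Trf.

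Fth1, the ferritin heavy chain, carries the ferroxidase activity of the ferritin shell. Wild-type saline libraries had 1879, 1734, 2967, 2742 and 2809 CPM and wild-type LPS libraries 1771, 1895, 2719, 2808 and 3177 CPM. Knockout saline libraries had 1578, 1698, 2252, 2242 and 2535 CPM and knockout LPS libraries 1836, 1766, 2589, 2263 and 2919 CPM. In every group replicates 1 and 2 lay below replicates 3 to 5. The sets averaged 1769 and 2668 CPM, a log2 difference of 0.59 ± 0.06 (edgeR adjusted p = 1.52e-08), and did not overlap, which held for 22.0% of all genes tested.

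Against that spread no group difference in Fth1 passed the threshold. After saline the knockout mean was 84.9% of the wild-type mean (-0.24 ± 0.21 on the log2 scale), and after LPS it was 91.9% (-0.12 ± 0.21; edgeR adjusted p = 1.00 for each). With the library set as a term the unadjusted p after saline was 0.00756 and the edgeR adjusted p 0.485. In replicates 3 to 5 alone, averaged over treatments, the Fth1 difference was -0.22 with an edgeR adjusted p of 0.0283, in a fit that called 8.10% of all genes. In replicates 1 and 2 alone it was -0.06 (edgeR adjusted p = 0.901). After saline the microglia markers, another cell type rich in ferritin, lay below 0 in 10 of 10 cases (median -0.18; summed 338 to 517 CPM in knockout, 357 to 655 CPM in wild-type), and correlated with Fth1 at r = 0.62 after removal of the set means. Their part in the Fth1 values was not tested. The LPS means were 102% of saline in wild-type and 110.4% in knockout (edgeR adjusted p = 1.00 for each).

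Ftl1 encodes the ferritin light chain, which helps the iron core to form, and ranged from 70.9 to 115 CPM. Its coefficient of variation was 9.17% over the 20 libraries against 22.1% for Fth1. Within library sets the order differed: 13.6% against 5.85% in replicates 1 and 2, and 5.36% against 11.3% in replicates 3 to 5. Its mean was 91.9 ± 12.1 CPM after saline and 93.7 ± 5.43 after LPS in wild-type mice, and 89.0 ± 3.29 and 97.3 ± 10.6 in knockout mice (SD, n = 5 each). The log2 fold changes of the 4 comparisons lay between -0.05 and 0.13, each with an SE of 0.09 and an edgeR adjusted p of 1.00. The library sets differed by 0.02 ± 0.06 (edgeR adjusted p = 0.761).

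The ratio of Fth1 to Ftl1 counts within a library does not depend on scaling between libraries. It averaged 24.9 ± 5.25 over the 20 libraries (SD), 19.5 ± 2.67 in the 8 libraries of replicates 1 and 2 and 28.5 ± 2.73 in the 12 of replicates 3 to 5. By group it was 26.3 ± 4.38 after saline and 26.4 ± 6.12 after LPS in wild-type mice, and 23.2 ± 4.80 and 23.7 ± 6.38 in knockout mice. The log2 ratio differed by -0.19 between knockout and wild-type after saline (two-sided exact permutation test, p = 0.262) and by -0.16 after LPS (exact p = 0.516). LPS and saline differed by -0.01 in wild-type (exact p = 0.968) and 0.02 in knockout (exact p = 0.937), and over these 4 comparisons each adjusted p was 0.968.

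Permuting within library sets gave another picture for the saline mice. All 5 knockout saline libraries had a lower ratio than each wild-type saline library of the same set: 18.0 and 18.2 against 19.4 and 24.5, and 25.4 to 28.0 against 29.0 to 29.5. The exact p within sets was 0.0167, the smallest that 120 arrangements allow, and 0.0667 after adjustment over the 4 comparisons. After LPS the exact p within sets was 0.217.

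**Figure D3:**
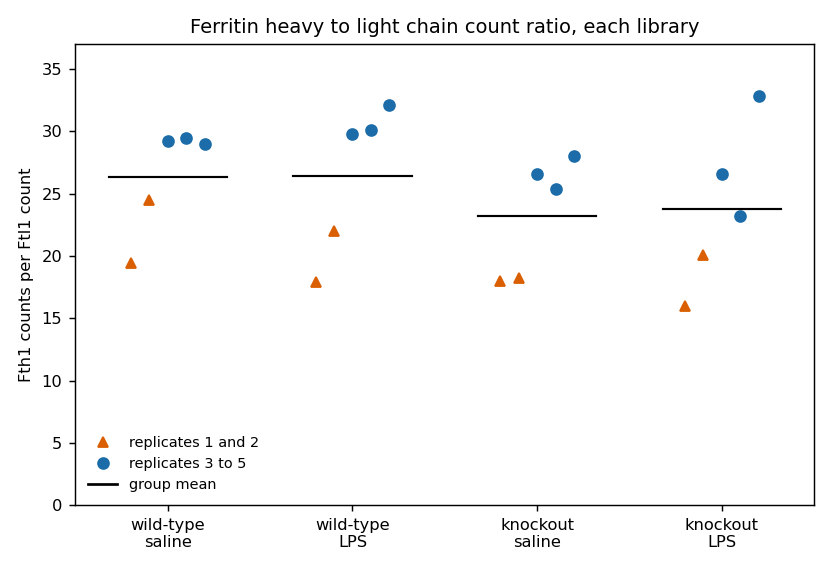
Fth1 counts per Ftl1 count in every library, by group, with triangles for replicates 1 and 2, circles for replicates 3 to 5 and a black line for each group mean. The sets lie at 16.0 to 24.5 and 23.2 to 32.8, and their means of 19.5 and 28.5 are further apart than any group means.

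Slc40a1 encodes ferroportin, the known iron exporter of mammalian cells. It ranged from 8.07 to 15.5 CPM, and averaged 11.5 ± 2.69 CPM after saline and 13.2 ± 2.11 after LPS in wild-type mice, and 11.7 ± 2.72 and 11.9 ± 2.28 in knockout mice (SD, n = 5 each). The groups overlapped in all 4 comparisons. The log2 fold change was 0.20 ± 0.19 for LPS in wild-type, 0.02 ± 0.19 for LPS in knockout, 0.03 ± 0.19 for knockout after saline and -0.15 ± 0.19 for knockout after LPS (edgeR adjusted p = 1.00 for each). Counts were 171 to 302 per library.

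Cp encodes ceruloplasmin, a copper ferroxidase that also serves as an acute-phase protein of the liver. Wild-type saline libraries had 9.37, 7.47, 6.14, 6.87 and 7.71 CPM and wild-type LPS libraries 17.0, 10.1, 10.6, 8.64 and 7.11 CPM. Knockout saline libraries had 11.1, 8.18, 6.54, 13.0 and 12.9 CPM and knockout LPS libraries 9.53, 8.02, 8.45, 8.07 and 6.65 CPM. The highest values fell in wild-type LPS 1 and knockout saline 4 and 5, and all 4 group ranges overlapped. LPS and saline differed by 0.51 ± 0.22 in wild-type mice (unadjusted p = 0.0282, edgeR adjusted p = 1.00). In knockout mice they differed by -0.34 ± 0.22 (edgeR adjusted p = 1.00). The interaction was -0.85 ± 0.31 (unadjusted p = 0.0113, edgeR adjusted p = 1.00), and without wild-type LPS 1 the value for LPS in wild-type was 0.28 and the interaction -0.62.

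Meningeal fibroblast markers had mostly the same signs as Cp. Their 10 genes, none of them at 0, summed to 56.3 to 113 CPM after saline and 69.4 to 144 after LPS in wild-type mice. In knockout mice they summed to 69.5 to 168 and 80.0 to 115 CPM. The libraries with the highest Cp had the highest sums: 144 CPM in wild-type LPS 1, and 168 and 127 CPM in knockout saline 4 and 5. Below these the match was looser: the next highest sum, 118 CPM in knockout saline 3, went with a Cp of 6.54 CPM. For LPS in wild-type 9 of 10 markers lay above 0 (median log2 fold change 0.39), and in knockout 10 of 10 lay below 0 (median -0.34); their median interaction was -0.87. Over the 20 libraries Cp correlated with the mean log2 level of this list at r = 0.84, and with mural cell markers at r = 0.72, after removal of the set means. The part of such tissue in the Cp values was not tested.

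**Figure D4:**
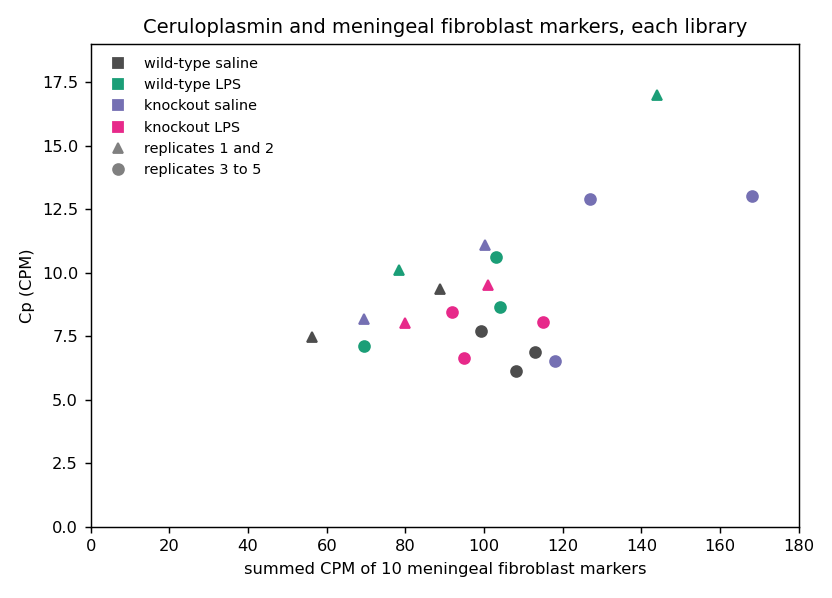
Cp (CPM) against the summed CPM of the 10 meningeal fibroblast markers, 1 point per library, coloured by group, with triangles for replicates 1 and 2 and circles for replicates 3 to 5. The 3 libraries at 127 to 168 CPM on the horizontal axis have the 3 highest Cp values, 12.9 to 17.0 CPM. The library next to them, knockout saline 3 at 118 CPM, has a Cp of 6.54 CPM.

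Aco1 and Ireb2 encode the iron sensors IRP1 and IRP2; the former is a cytosolic aconitase when it holds an iron-sulfur cluster, and the latter is degraded when iron is plentiful, so mRNA levels do not report their activity. Aco1 ranged from 20.4 to 37.8 CPM, and averaged 31.5 ± 7.03 after saline and 32.0 ± 5.52 after LPS in wild-type mice, and 32.8 ± 3.19 and 30.6 ± 4.82 in knockout mice (SD, n = 5 each). Ireb2 ranged from 49.7 to 77.2 CPM, with group means of 65.2 ± 4.80, 62.5 ± 5.79, 67.0 ± 6.05 and 59.8 ± 6.62 CPM in the same order. The log2 fold changes lay between -0.10 and 0.06 for Aco1 and between -0.16 and 0.04 for Ireb2 (edgeR adjusted p = 1.00 for each). The lowest of these, for Ireb2, was LPS in knockout, at -0.16 ± 0.09 (unadjusted p = 0.0995). After removal of the set means both sensors correlated with astrocyte markers, Aco1 at r = 0.73 and Ireb2 at r = 0.63, and with each other at r = 0.58.

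**Figure D5:**
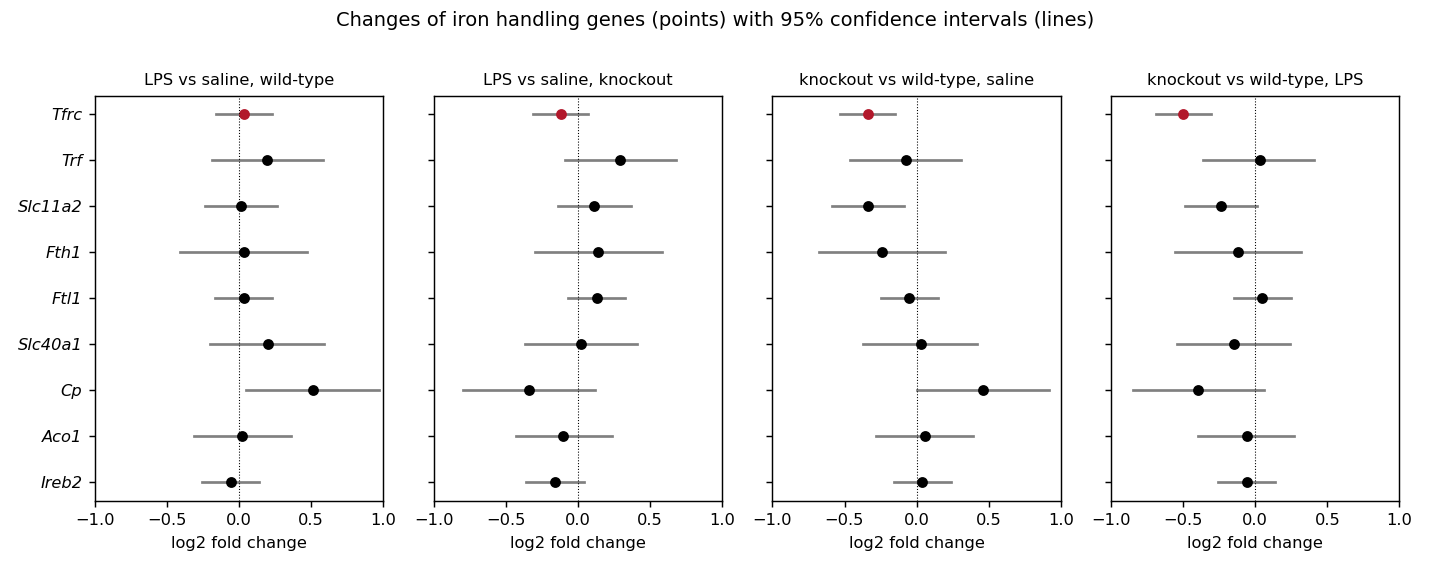
Log2 fold change of each member (point, red for Tfrc) with its 95% confidence interval (line) in 4 comparisons, from the edgeR fit over 20 libraries. Comparisons that share a group are not independent; for knockout against wild-type the Tfrc interval lies below 0 after saline (-0.53 to -0.15) and after LPS, where Tfrc was chosen for its value.

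Counted over the list, no member other than Tfrc passed the threshold for treatment or genotype in edgeR without added terms. For LPS in wild-type 0 of 9 were called in edgeR, as were 0% of all genes tested, and 0 by DESeq2 or limma-voom. Cp alone had an unadjusted p under 0.05, as did 2.07% of all genes. For LPS in knockout 0 of the 8 members other than Tfrc were called in edgeR (0.00609% of all genes), 0 by the other tools and 0 at an unadjusted p under 0.05 (1.75% of all genes). For LPS averaged over genotypes these counts for the 8 were also 0, 0 and 0 (0.0426% of all genes called, 2.71% at an unadjusted p under 0.05).

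For knockout against wild-type after saline 0 of 9 were called in edgeR (0.171% of all genes), 0 by DESeq2 and 1, Tfrc, by limma-voom. Tfrc, Slc11a2 and Cp made 3 at an unadjusted p under 0.05 (2.67% of all genes). After LPS 0 of the other 8 were called (0.146% of all genes, 0.0305% in the lower direction), each with an edgeR adjusted p of 1.00, and 0 had an unadjusted p under 0.05 (3.27% of all genes). Tfrc was past the threshold there, which its choice fixed; it was not past it without the filter, with only the groups compared, in replicates 1 and 2 alone, without the 3 libraries high in thalamus markers, or in 6 of 20 fits that left out a library. The interaction had 0 of the other 8 called in edgeR (0% of all genes), 0 by the other tools and 1, Cp, at an unadjusted p under 0.05 (1.11% of all genes). Averaged over treatments, a comparison that shares the knockout LPS libraries with the choice of Tfrc, 0 of the other 8 were called in edgeR (0.439% of all genes, 0.146% lower) or by DESeq2, and 1, Slc11a2, by limma-voom. Slc11a2 alone of the 8 had an unadjusted p under 0.05 (4.79% of all genes), and its edgeR adjusted p was 0.288.

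The members' signs were counted beside those of all genes. After LPS 6 of the 8 members other than Tfrc lay below 0 in knockout against wild-type (median log2 fold change -0.09), where 49.5% of all genes did (median 0.00). After saline 5 of 9 did (median -0.05), against 55.5% of all genes (median -0.02). For LPS in wild-type 1 of 9 lay below 0 (median 0.03), against 55.2% of all genes (median -0.02). Between the library sets 5 of 9 members were called, all higher in replicates 3 to 5: Fth1, Aco1 (0.39 ± 0.07), Slc40a1 (0.38 ± 0.10), Trf (0.34 ± 0.10) and Ireb2 (0.16 ± 0.05, edgeR adjusted p = 0.0130). Of all genes 64.3% were called between the sets (30.2% higher, 34.1% lower).

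Of 91 other iron genes listed and found in the table, 80 were tested, and 0 passed the edgeR threshold in each of the 7 group comparisons. At an unadjusted p under 0.05 there were 6 for LPS in wild-type (2.07% of all genes) and 3 in knockout (1.75%), and 3 for knockout after saline (2.67%) and 4 after LPS (3.27%). The interaction had 3 (1.11%), LPS over both genotypes 3 (2.71%) and the knockout over both treatments 2 (4.79%). DESeq2 called 1, Lcn2, for LPS over both genotypes (0.116% of all genes), as did limma-voom (0.104%), and limma-voom called 2 for knockout after saline (2.20%) and 2 for the knockout over both treatments (3.26%). Lcn2, which encodes the siderophore-binding lipocalin 2 and is known to be induced by LPS, was the closest in edgeR. In wild-type mice it averaged 0.0883 ± 0.0934 CPM after saline (8 counts in all) and 0.671 ± 0.216 after LPS (66 counts), and in knockout mice 0.151 ± 0.108 (15 counts) and 0.483 ± 0.243 (49 counts; SD, n = 5 each). Its log2 fold change for LPS was 2.90 ± 0.62 in wild-type, without overlap (0.445% of all genes), and 1.66 ± 0.58 in knockout (edgeR adjusted p = 0.844 and 1.00). Averaged over genotypes it was 2.28 ± 0.42, with an edgeR adjusted p of 0.0548, and 0.0118 with the replicate block.

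Among further uptake genes (8 of 12 tested), the ferrireductase Steap2 averaged 6.76 ± 0.571 CPM in wild-type saline and 11.1 ± 3.23 in wild-type LPS (0.71 ± 0.19, edgeR adjusted p = 1.00). These groups did not overlap, as held for 0.445% of all genes. In the knockout groups Steap2 averaged 8.38 ± 0.615 and 9.14 ± 2.77 CPM. The metal transporter Slc39a14 lay at 39.5 to 41.8 CPM in all 4 group means. Hepcidin (Hamp), the peptide that removes ferroportin from the cell surface, had 0 counts in both wild-type groups, which allows up to 0.0313 CPM after saline and 0.0317 CPM after LPS over the group (3 counts, counting error only), and 1 count in each knockout group. Bmp6, an inducer of hepcidin, averaged 6.36 ± 1.53 CPM in wild-type saline and 10.9 ± 3.94 in knockout saline (0.77 ± 0.24; edgeR adjusted p = 0.908, limma-voom adjusted p = 0.0359). In that comparison 9 of 10 meningeal fibroblast markers also lay above 0 (median 0.45), and their part in the Bmp6 values was not tested. Heph, a ferroxidase related to Cp, averaged 7.64 ± 0.665 CPM in wild-type LPS and 5.36 ± 0.979 in knockout LPS (-0.51 ± 0.18, edgeR adjusted p = 0.926). These groups did not overlap, as held for 0.372% of all genes in the lower direction. For knockout after LPS 8 of 9 genes of the export and hepcidin list lay below 0 (median -0.12), against 49.5% of all genes. In the saline comparison 2 of the 9 lay below 0 (median 0.05), against 55.5% of all genes. None passed the edgeR threshold in either comparison.

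In the sensing list Epas1, an oxygen-regulated factor whose mRNA is known to carry an iron-responsive element, averaged 185 ± 12.3 CPM in wild-type LPS and 158 ± 9.82 in knockout LPS (-0.23 ± 0.08, edgeR adjusted p = 0.939). These groups did not overlap either, as held for 0.372% of all genes in the lower direction. Epas1, Heph and Steap2 were named for a small p in their lists, which favours groups without overlap. Among 21 mitochondrial iron-sulfur genes Nfu1, a cluster carrier, averaged 41.5 ± 8.46 CPM in wild-type saline and 33.3 ± 2.61 in knockout saline (-0.32 ± 0.15; edgeR adjusted p = 1.00, limma-voom adjusted p = 0.00464). Hmox1, which breaks down heme, averaged 5.09 to 5.61 CPM in the 4 groups. Nfe2l2, the regulator of antioxidant genes that limit ferroptosis, averaged 13.0 CPM in wild-type saline and 15.8 CPM in wild-type LPS (0.28 ± 0.11, edgeR adjusted p = 1.00). The 5 storage and chaperone genes, the 18 heme genes and the 12 ferroptosis genes had median log2 fold changes between -0.03 and 0.07 in the 4 comparisons of single groups. Between the library sets 46 of the 80 were called higher and 12 lower, against 30.2% and 34.1% of all genes.

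The genes whose levels most resembled Tfrc over the 20 libraries included others that differ between the genotypes. Among 14164 genes, after removal of the set means, the highest correlations were with Gpnmb (r = 0.89), Fkbp5 itself (0.88), Nhlh1 (0.87), Psme4 (0.85) and Glt1d1 (0.84). The most opposite were Hmga1b (r = -0.88), Glo1 (-0.88) and Klrg1 (-0.85). All points share libraries and groups, and these r are a description. With group means also removed within the sets, r was 0.70 for Psme4, 0.62 for Nhlh1, 0.59 for Gpnmb, 0.50 for Glt1d1, 0.34 for Fkbp5, -0.47 for Klrg1, -0.23 for Glo1 and -0.07 for Hmga1b. Gpnmb, a glycoprotein of activated microglia and macrophages, averaged 6.61 and 5.90 CPM in the wild-type groups (saline, LPS) and 1.77 and 1.93 CPM in the knockout groups.

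The neighbours of Tfrc on chromosome 16 were also looked at. Of 79 genes tested within 5 Mb, 0 passed the edgeR threshold for knockout against wild-type after saline or after LPS. Of all genes 0.171% and 0.146% passed, so a count of 0 among 79 says little. Their median log2 fold change was -0.01 after saline and -0.03 after LPS. Below 0 lay 42 and 46 of the 79, against 55.5% and 49.5% of all genes.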

How the data were processed

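RNA was purified with Qiagen's RNeasy Plus Mini chemistry and made into libraries with NEBNext Ultra reagents, per the labels' protocols. The authors used Trimmomatic 0.38, FastQC, MultiQC and featureCounts 1.6.0 with mm10, per the submitters' processing notes; the aligner, annotation release, strand setting and handling of multiply mapped reads are not given in the sources used here. What the authors deposited is 1 table of whole-number read counts by gene, neither filtered nor scaled. All gene identifiers (100%) matched GENCODE M21, and 0 sample columns were left unused. The members and lists were chosen with earlier results of these data known, and the named genes are the members, Fkbp5, Hamp, Lcn2, Hmox1, Slc39a14, the genes of each list with the smallest p, and those most like Tfrc (without predicted genes).

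Testing used edgeR 4.0.16 with R 4.3.3 (TMM, filterByExpr by group, robust quasi-likelihood F test, group means over all 20 libraries, Benjamini-Hochberg threshold 0.05 over 16419 genes), after the procedure was tested on simulated data. Levels are CPM with TMM factors, and correlations use log2 CPM with a prior count of 2. Copies of members were found with blast 2.17.0. Total counts of 16652992 to 27230202 give each member at least 105 counts per library. Alternatives were DESeq2 1.42.0, limma-voom (limma 3.58.1), DESeq2's size factors, other filters, a replicate block, a library set term, only the groups compared, each set alone, no thalamus-high libraries and leaving out each library; the fit without the thalamus-high libraries was also run with the set term, an alternative added after seeing the data. After removal of group means, 30 pairs of libraries of the same replicate number correlated at 0.26 to 0.85, those of different numbers within a set at 0.19 to 0.67 and those across sets at -0.70 to -0.15, so the number carries the set and the blocked value is given where it changes a call.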

Additional observations from a re-analysis of the deposited data

Results flagged for a closer look

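Of 36 sets of 5 libraries (9 genes in 4 groups), 2 held a library whose gap to its nearest neighbour took more than the critical share of the group's range; chance gives about 1 in 20. In wild-type saline, Slc11a2 in replicate 1 had 62.6 CPM, against 46.6 to 48.9 CPM in the other 4. In the same group, Ftl1 in replicate 2 had 70.9 CPM, against 93 to 102 CPM in the others. Without wild-type saline 1 the log2 fold change of Slc11a2 between knockout and wild-type was -0.25 after saline and -0.24 averaged over treatments.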

How the results depend on the processing

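Over 91 results and their alternatives, no called value changed sign. The members past the threshold for knockout against wild-type after LPS (1, Tfrc) became 0 without the filter, with only the groups compared, in replicates 1 and 2 alone and without the 3 thalamus-high libraries, and 0 to 1 on leaving out a library (0 without wild-type LPS 2, 3 or 5 or knockout LPS 2, 3 or 4); the Tfrc difference was -0.57 to -0.49 in those 4 settings and -0.54 to -0.46 on leaving out a library. For knockout after saline the count of 0 became 1 with limma-voom. For the knockout over both treatments the count of 1 was again Tfrc. This call and the one after LPS use the knockout LPS libraries that Tfrc was chosen from, and are a description. With Slc11a2 the count became 2 with limma-voom, with the replicate block and in the fit without thalamus-high libraries with the set term. It became 3 in replicates 3 to 5 alone (Tfrc, Fth1 and Slc11a2), and 0 in replicates 1 and 2 alone. Among the other iron genes, counts of 0 became 2 for knockout after saline with limma-voom and in replicates 3 to 5 alone (Nfu1, Bmp6), 1 for knockout after LPS in replicates 3 to 5 alone (Nfu1), 2 for the knockout over both treatments with limma-voom (Slc39a8, Nfu1) and in replicates 3 to 5 alone (Nfu1, Glrx5), and 1 for LPS over both genotypes with DESeq2, limma-voom, the replicate block and the set term (Lcn2), and 0 to 1 on leaving out a library (1 without wild-type saline 5, knockout saline 5 or knockout LPS 2). The replicate block changed no other call of a member. The set call of Ireb2 was lost without the filter and without the thalamus-high libraries. Over all genes the calls for knockout after LPS numbered 24, and 14 with only the groups compared, 4 in replicates 1 and 2, 53 with DESeq2, 62 with limma-voom, 63 with the block and 118 in replicates 3 to 5; for the knockout over both treatments 72, and 10, 127, 536, 176 and 1257 in replicates 1 and 2, with DESeq2, limma-voom, the block and in replicates 3 to 5. The cause was not tested. At Trf, Slc40a1 and Cp, counts as low as 105 per library limit what can be seen.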

Other observations

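Slc11a2 was high in replicate 1 of 3 groups, at 62.6 and 63.7 CPM in the wild-type groups (saline, LPS) and 53.1 CPM after LPS in knockout mice. Knockout saline 1 had 35.8 CPM. The same 3 libraries had the lowest scores on the first principal component, -80.06, -71.11 and -73.58, against -25.48 for knockout saline 1. With group means removed within each set, Slc11a2 correlated with Ftl1 at r = 0.85, with Aco1 at -0.78 and with Ireb2 at -0.71, and Aco1 with Ireb2 at 0.73. After removal of the set means alone, hippocampal neuron markers correlated with Slc11a2 at r = -0.70, with Ftl1 at -0.67, with Ireb2 at 0.60 and with Aco1 at 0.56. These values are over 20 libraries that share library and depth, and are given as a description.

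Erythroid markers, a sign of blood in the tissue, lay above 0 for LPS in 5 of 5 cases in wild-type (median log2 fold change 0.99) and in knockout (median 1.06), none past the threshold, at a summed 1.05 to 85.6 CPM over all libraries. Their correlation with the 9 members lay between -0.30 and 0.25.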
